A study of Homo sapiens with 6 samples.

Results

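Transcripts of 10 endothelial-type and angiogenic genes were followed in U2OS, a human cell line established from an osteosarcoma, after siRNA treatment against H3.X and H3.Y, histone H3 variants found in primates. The genes were ESM1, ADGRL4, RHOJ, VEGFC, KDR, FLT1, NRP1, NRP2, ANGPT1 and CDH5. They were picked by name with earlier results of the same arrays in view, so their levels and differences are given as a description, without a test. Probe sets annotated with exactly 1 gene symbol were taken, which gave 11 of the 33297 probe sets and 10 of the 18417 named genes, with 2 probe sets for NRP2 and 1 for each other gene. The 6 arrays formed 3 groups of 2 arrays: siRNA directed at H3.X together with H3.Y (the combined knockdown), siRNA directed at H3.Y alone, and siRNA directed at luciferase as the control. All cells were transfected 2 times and harvested 4 days after transfection. Replicates are labelled as biological, but the labels give neither how their cultures were separated nor which siRNA or mixture of siRNAs made the combined knockdown.

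Vessel growth is driven by secreted factors of the VEGF family, which bind receptor tyrosine kinases on endothelial cells, with neuropilins as co-receptors. The angiopoietin ANGPT1 acts through a separate receptor, TEK, and stabilises vessels, while VE-cadherin (CDH5) holds endothelial cells together. Tumour cells of other origins commonly secrete VEGF ligands and carry neuropilins, whereas VEGF receptors and VE-cadherin mark mainly the endothelium itself.

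The values are expression levels per probe set as deposited, taken to be log2, and array medians lay between 5.10 and 5.14. Pearson r across probe sets was 0.986 to 0.992 for arrays within a group and 0.978 to 0.987 for arrays from different groups. No probe set was named for the H3.X or H3.Y gene (0 of 33297), so the knockdown itself was not read here. No detection call came with the values, and a level below the array median is called dim below. Levels of single genes were set only against the array median, not against each other, since each probe set has its own response. Averages over marker panels are compared between groups only. In these bulk samples, fewer cells carrying a transcript and less transcript per cell cannot be told apart.

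The label "endothelial" was first set against defining markers of that cell type. Of 10 endothelial markers (PECAM1, VWF, TEK, TIE1, CLDN5, ERG, CDH5, EMCN, ESAM and ROBO4), 7 were dim on all 6 arrays. TIE1, CLDN5 and ROBO4 lay above the array median on all 6. Being dim is a statement about the probe set on these arrays, since much of every array lies below its median and probe sets differ in response, so it does not show that a transcript was absent. PECAM1, the endothelial adhesion molecule CD31, stood at 3.40 and 3.49 log2 units in the combined knockdown, 3.45 and 3.41 after H3.Y siRNA, and 3.41 and 3.35 in luciferase cells. VWF, the von Willebrand factor, stood at 3.88 and 3.86, at 3.83 and 3.54, and at 3.87 and 3.81 in the same order of groups. For both genes the knockdown arrays overlapped the luciferase arrays. Over the 6 arrays TEK lay at 3.44 to 3.93, ERG, an endothelial transcription factor, at 4.44 to 4.83, and the junction protein CLDN5 at 5.41 to 5.77. Averaged over the 10 markers, the arrays lay between 4.23 and 4.29 log2 units in the combined knockdown, between 4.25 and 4.40 after H3.Y siRNA and between 4.19 and 4.29 in luciferase cells. Of 6 mesenchymal and osteoblast markers, the classes nearest to the labelled line, VIM, COL1A1, CDH11 and SPARC lay above the array median on all 6 arrays. The osteoblast factor RUNX2 was dim on 1 array and the collagen COL1A2 on 5. The genes studied here are called endothelial-type for where they are best known, not for the cells measured.

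**Figure D1:**
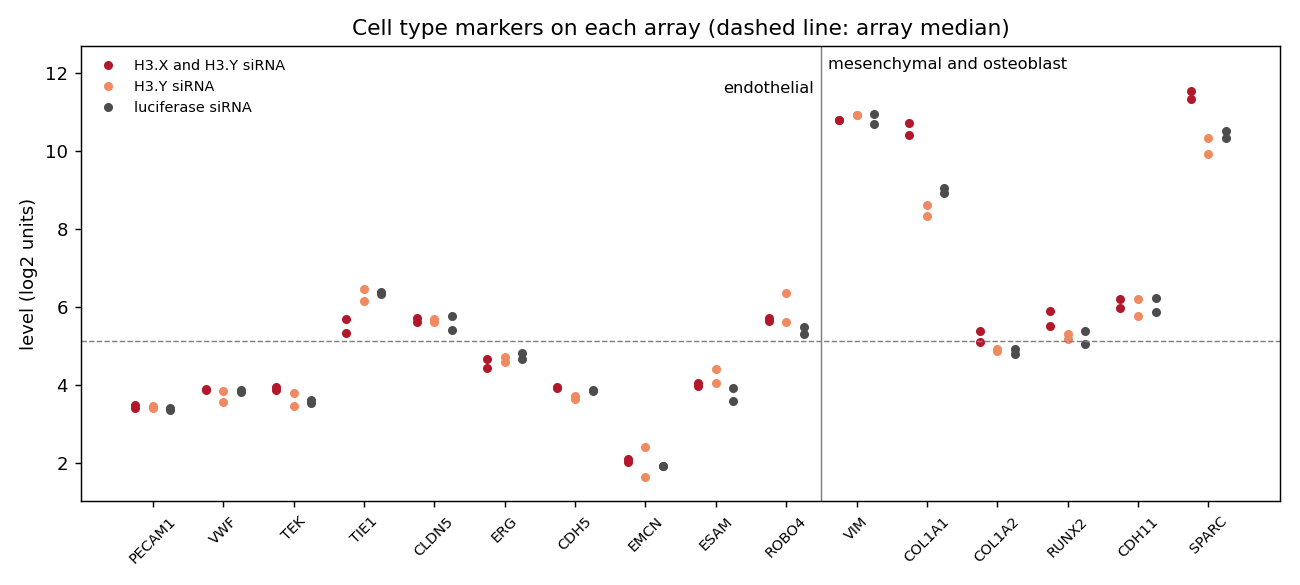
Levels (log2 units, vertical axis) of 10 endothelial and 6 mesenchymal and osteoblast markers on each of the 6 arrays, with 1 point per array and the array median as a dashed line. Of the endothelial markers, 7 lay below the line on all arrays, and of the mesenchymal and osteoblast markers 4 lay above it on all arrays.

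The largest differences belonged to ESM1, ADGRL4 and RHOJ, and they were seen in the combined knockdown. ESM1 and ADGRL4 were lower there and RHOJ was higher, while the H3.Y arrays lay at or near the level of the luciferase arrays. Because these genes stood apart on the same arrays, the 250 bases before each annotated start are shown, from RefSeq on GRCh38.p14 and written 5′ to 3′ on the strand of the gene. ESM1 is read from the minus strand of chr5:54985594-54985843, ADGRL4 from the minus strand of chr1:79006731-79006980, and RHOJ from the plus strand of chr14:63204193-63204442. Capitals mark matches to the motifs given after the sequences.
ESM1: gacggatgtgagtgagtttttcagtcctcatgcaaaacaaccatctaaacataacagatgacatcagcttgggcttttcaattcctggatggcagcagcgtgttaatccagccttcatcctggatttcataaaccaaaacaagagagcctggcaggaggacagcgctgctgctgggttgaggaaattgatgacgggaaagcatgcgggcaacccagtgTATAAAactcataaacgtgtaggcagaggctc
ADGRL4: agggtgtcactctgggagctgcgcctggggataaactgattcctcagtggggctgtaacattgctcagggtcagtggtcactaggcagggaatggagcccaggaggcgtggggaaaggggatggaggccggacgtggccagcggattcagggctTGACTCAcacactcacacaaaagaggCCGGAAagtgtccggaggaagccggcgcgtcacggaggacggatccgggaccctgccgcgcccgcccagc
RHOJ: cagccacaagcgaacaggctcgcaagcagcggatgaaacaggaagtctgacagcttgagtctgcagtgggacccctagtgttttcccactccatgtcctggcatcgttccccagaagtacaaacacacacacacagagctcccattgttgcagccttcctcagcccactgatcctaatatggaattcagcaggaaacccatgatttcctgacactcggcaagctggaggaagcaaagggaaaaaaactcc

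Both strands were searched for the AP-1 letters TGANTCA, the ETS letters CCGGAA, the GATA letters AGATAA, the TATA box TATAAA, the forkhead letters GTAAACA and the cyclic AMP response element TGACGTCA. The ESM1 window held a TATA box that begins 32 bases before the start, which 10.7% of 35116 promoters of the same length also held. The ADGRL4 window held an AP-1 match 96 bases before the start and an ETS match 70 bases before it, found in 6.57% and 14.5% of promoters. The RHOJ window held 0 matches to these letters, and no matches overlapped. Of the other genes, promoters were read for VEGFC, KDR, FLT1 and NRP2, and FLT1 alone among these held matches, a TATA box and a cyclic AMP response element. A match is a description of the letters and not a site shown to be used.

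ESM1 encodes endocan, a secreted proteoglycan known as a product of VEGF-stimulated endothelium (probe set 8112045, gene at chr5:54977867-54985593). It stood at 5.63 and 6.39 log2 units in the combined knockdown, at 7.91 and 7.92 after H3.Y siRNA, and at 8.25 and 8.24 in luciferase cells. The combined knockdown arrays lay below the other 4 arrays, and the H3.Y arrays lay just below the luciferase arrays. The combined knockdown was 4.71-fold lower than luciferase (log2 -2.24 ± 0.24, standard error of the limma fit, n = 2 arrays per group), against -0.33 ± 0.24 after H3.Y siRNA. The SD between the combined knockdown arrays was 0.54, the highest of the 11 probe sets in that group, and the difference was log2 -2.61 with replicate 1 alone and -1.86 with replicate 2 alone.

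ADGRL4 encodes an adhesion receptor of the G protein-coupled class, named ELTD1 in older annotation, that is known from vascular endothelium (probe set 7917182, gene at chr1:78889764-79006730). Its level was 2.89 and 3.13 log2 units in the combined knockdown, 5.62 and 5.87 after H3.Y siRNA, and 5.40 and 5.89 in luciferase cells. The H3.Y and luciferase arrays overlapped, and the combined knockdown arrays lay 2.27 log2 units below the nearest luciferase array. The signal was above the array median in both other groups and below the lower quartile of the array in the combined knockdown. The combined knockdown was 6.22-fold lower than luciferase (log2 -2.64 ± 0.21). Since it lay that low on the arrays, the fold may depend on the floor, which was not measured. H3.Y siRNA differed from luciferase by 0.10 ± 0.21.

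RHOJ encodes a small GTPase close to CDC42, known for a part in endothelial migration and tube formation (probe set 7974902, gene at chr14:63204443-63293508). It stood at 7.87 and 7.65 log2 units in the combined knockdown, at 4.55 and 4.61 after H3.Y siRNA, and at 4.60 and 4.71 in luciferase cells. The transcript was dim on the 4 arrays of the other groups and above the median only in the combined knockdown. The combined knockdown was 8.59-fold higher than luciferase (log2 3.10 ± 0.14), against -0.07 ± 0.14 after H3.Y siRNA. Set directly against H3.Y siRNA, the combined knockdown differed by log2 3.18 ± 0.14 for RHOJ, -2.74 ± 0.21 for ADGRL4 and -1.90 ± 0.24 for ESM1.

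Among the ligands, VEGFC was higher after both knockdowns and ANGPT1 was dim throughout. VEGFC, a growth factor of lymphatic and blood vessels that binds the receptor FLT4, stood at 8.25 and 8.14 log2 units in the combined knockdown, 8.60 and 8.38 after H3.Y siRNA, and 7.37 and 7.30 in luciferase cells (probe set 8103822, gene at chr4:176683538-176792922). All 4 knockdown arrays lay above both luciferase arrays. The combined knockdown was 1.82-fold higher than luciferase (log2 0.86 ± 0.14) and H3.Y siRNA 2.23-fold higher (1.15 ± 0.14). These comparisons share the luciferase arrays. Between the knockdowns, the combined one was lower by log2 -0.29 ± 0.14, with its arrays 0.13 log2 units from the nearest H3.Y array.

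ANGPT1, the activating ligand of the endothelial receptor TEK, stood at 3.72 and 3.47 log2 units in the combined knockdown, 3.28 and 3.55 after H3.Y siRNA, and 3.74 and 3.88 in luciferase cells (probe set 8152297). The luciferase arrays were the highest, by 0.01 log2 units over the nearest combined knockdown array and by 0.19 over the nearest H3.Y array. The differences from luciferase were -0.21 ± 0.16 in the combined knockdown and -0.40 ± 0.16 after H3.Y siRNA.

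The VEGF receptors were dim in every group. KDR, the main signalling receptor for VEGFA in endothelium, lay at 3.48 and 2.98 log2 units in the combined knockdown, 3.21 and 3.39 after H3.Y siRNA, and 3.12 and 3.09 in luciferase cells (probe set 8100393). The combined knockdown arrays spanned those of both other groups. FLT1, which binds VEGFA tightly and is regarded as a trap for it, lay at 2.65 and 2.69, at 2.67 and 2.57, and at 2.88 and 2.55 in the same order of groups (probe set 7970763). All 3 groups overlapped for FLT1, which was below the lower quartile on all 6 arrays. Against luciferase, KDR differed by 0.12 ± 0.19 in the combined knockdown and 0.19 ± 0.19 after H3.Y siRNA, and FLT1 by -0.04 ± 0.16 and -0.09 ± 0.16.

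The neuropilins, co-receptors that bind VEGF family ligands and class 3 semaphorins, parted from each other. NRP1 stood at 8.98 and 8.82 log2 units in the combined knockdown, 8.05 and 8.21 after H3.Y siRNA, and 7.38 and 7.63 in luciferase cells (probe set 7932985, gene at chr10:33177493-33334667). Its 3 groups did not overlap, with the combined knockdown highest and luciferase lowest. The combined knockdown was 2.64-fold higher than luciferase (log2 1.40 ± 0.15), H3.Y siRNA was 1.55-fold higher (0.63 ± 0.15), and the combined knockdown exceeded H3.Y siRNA by 0.77 ± 0.15.

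NRP2, which also binds VEGFC, was dim on both of its probe sets. Probe set 8047738 stood at 4.30 and 4.30 log2 units in the combined knockdown, 4.76 and 4.59 after H3.Y siRNA, and 4.48 and 4.08 in luciferase cells, with differences from luciferase of 0.02 ± 0.17 and 0.39 ± 0.17. Probe set 8047763, annotated with 2 older mRNA records only, lay at 2.86 to 3.41 over the 6 arrays and differed by 0.06 ± 0.20 and 0.09 ± 0.20. On both probe sets the H3.Y arrays lay above the luciferase arrays, by 0.11 and 0.03 log2 units between nearest arrays, and the combined knockdown overlapped luciferase.

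CDH5, the adhesion protein of endothelial junctions, was dim on all arrays (probe set 7996264). It stood at 3.91 and 3.95 log2 units in the combined knockdown, 3.70 and 3.62 after H3.Y siRNA, and 3.83 and 3.87 in luciferase cells. The groups did not overlap, but the combined knockdown was above luciferase by only 0.08 ± 0.12 and H3.Y siRNA below it by -0.19 ± 0.12.

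**Figure D2:**
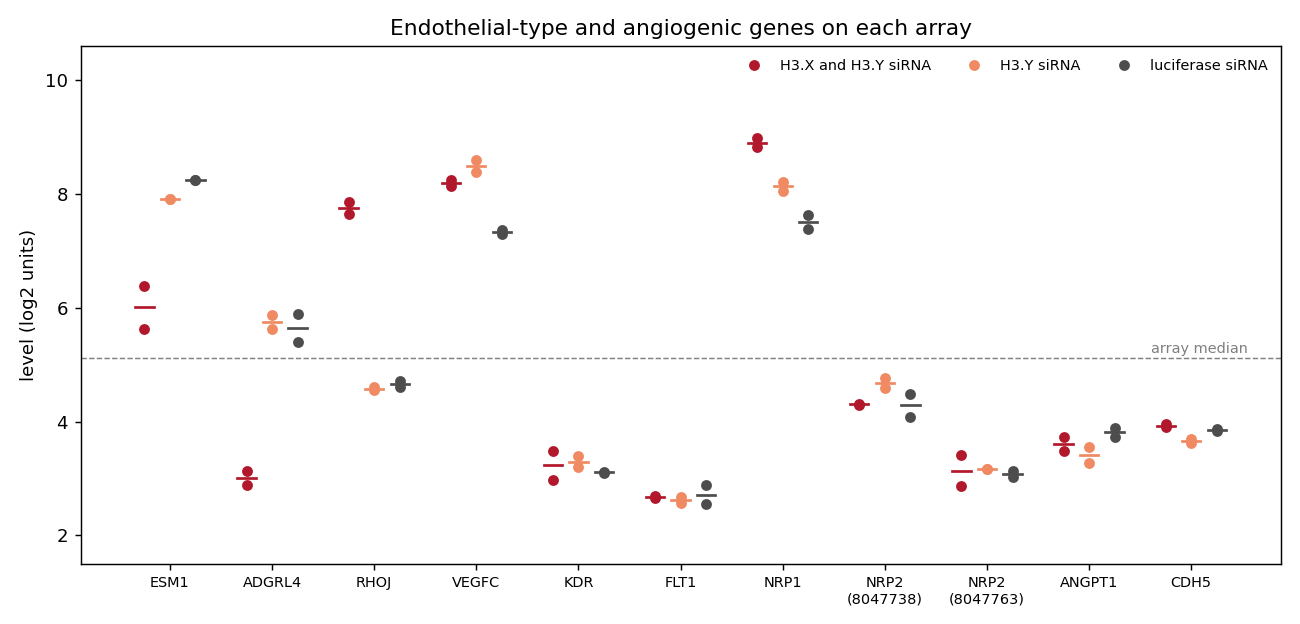
Levels (log2 units, vertical axis) of the 11 probe sets on each array, with 1 point per array and a bar at the group mean of 2 arrays. RHOJ and NRP1 are highest in the combined knockdown, ESM1 and ADGRL4 lowest, VEGFC is higher in both knockdowns, and the other probe sets stay below the dashed array median in all groups.

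Nothing is read from counts and medians over the 10 genes, because the genes were picked with these comparisons in view. Arrays of the 2 groups did not overlap for 7 of the 10 genes in each of the 3 comparisons (NRP2 by its brighter probe set), where 47.4%, 41.7% and 46.6% of all probe sets did not overlap for the combined knockdown, H3.Y siRNA and the comparison between them. The median size of the difference over the 10 genes was log2 0.54, 0.26 and 0.33 in the same order, against 0.16, 0.17 and 0.19 over all probe sets.

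**Figure D3:**
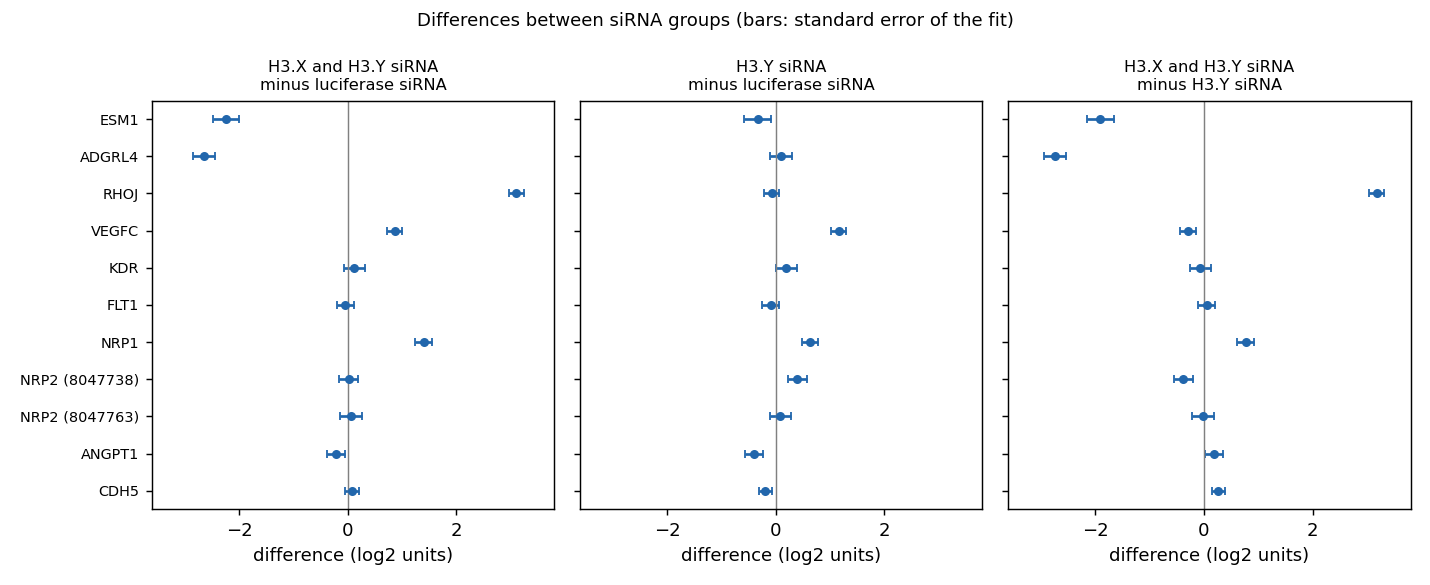
Differences between groups (log2 units, horizontal axis) for the 11 probe sets in the 3 comparisons, with bars for the standard error of the limma fit (n = 2 arrays per group). ESM1, ADGRL4 and RHOJ lie far from 0 in both panels with the combined knockdown on top and near 0 after H3.Y siRNA, while VEGFC and NRP1 lie above 0 against luciferase in both knockdowns.

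Partners of these genes were taken from 15 lists of textbook pathways and cell types, with 277 of 299 genes measured on a probe set of 1 symbol. The lists were written with earlier results of these arrays known. In the combined knockdown 13 of the 277 rose and 3 fell against luciferase (limma, adjusted p under 0.05), which is 5.78%, against 1.84% of all probe sets and 2.67% of those with 1 symbol. After H3.Y siRNA 0 rose and 1 fell, or 0.361%, against 0.279% and 0.385%. Between the combined knockdown and H3.Y siRNA, 23 were higher and 9 lower, or 11.6%, against 4.67% and 6.66%. The median difference over the 277 was log2 0.07, 0.04 and 0.02 in that order.

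Other VEGF ligands and receptors were not called in either knockdown against luciferase (0 of 4 measured). PGF, a ligand of FLT1, differed by log2 -0.67 ± 0.14 in the combined knockdown (adjusted p = 0.079, limma) and was lower there than after H3.Y siRNA by -0.81 ± 0.14 (adjusted p = 0.032). VEGFA differed by -0.30 ± 0.15 and VEGFB by -0.34 ± 0.20 after H3.Y siRNA (adjusted p = 0.46 and 0.53), and VEGFB by -0.30 ± 0.20 in the combined knockdown. In the angiopoietin and TIE list 0 of 10 genes passed against luciferase, with ANGPT2 at 0.76 ± 0.13 and the phosphatase PTPRB at 1.05 ± 0.23 after H3.Y siRNA (adjusted p = 0.089 and 0.13). ANGPT2, which opposes ANGPT1 at TEK in many settings, was lower in the combined knockdown than after H3.Y siRNA by -0.74 ± 0.13 (adjusted p = 0.035), at 3.84 and 3.74 against 4.55 and 4.51 log2 units, all dim. TIE1, the partner receptor of TEK, stood at 5.69 and 5.33 log2 units in the combined knockdown, 6.46 and 6.16 after H3.Y siRNA, and 6.38 and 6.32 in luciferase cells. Its arrays in the combined knockdown lay below the others, but the difference from luciferase of log2 -0.84 ± 0.18 had an adjusted p of 0.083.

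Of 43 endothelial identity genes, 0 passed in any of the 3 comparisons, with 28 dim on all 6 arrays and 14 above the median on all 6. The lowest p values in that list belonged to TIE1 and LYVE1 (-0.49 ± 0.14, adjusted p = 0.16) in the combined knockdown and to the nitric oxide synthase NOS3 (0.58 ± 0.17, adjusted p = 0.22) and PROX1 (0.42 ± 0.14, adjusted p = 0.27) after H3.Y siRNA. Of 32 endothelial transcription factors and VEGF-responsive regulators, 0 passed in the 3 comparisons as well. Over all probe sets 1.84% passed in the combined knockdown, 0.279% after H3.Y siRNA and 4.67% between them, so few calls could be looked for in either list. ID3 gave -1.12 ± 0.25 in the combined knockdown (adjusted p = 0.098) and DUSP5 0.96 ± 0.21 after H3.Y siRNA (adjusted p = 0.14). Between the knockdowns, ELK3 gave -0.68 ± 0.15 and EPAS1 0.69 ± 0.17 (adjusted p = 0.060 and 0.083). An unadjusted p under 0.05 was reached by 3, 4 and 3 of the 43 identity genes and by 7, 3 and 4 of the 32 regulators, for the combined knockdown, H3.Y siRNA and the comparison between them. Over all 277 pathway genes these counts were 68, 44 and 76, and over all 33297 probe sets they were 5089, 4618 and 6327. In the other lists with 0 calls against luciferase, they were 1 and 0 for VEGF ligands and receptors, 1 and 2 for the angiopoietin list, 7 and 1 for cadherins and catenins, and 1 and 1 for blood markers, in the combined knockdown and after H3.Y siRNA.

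Against luciferase, neuropilin and Notch partners were called in single genes. SEMA3C, a semaphorin that signals through neuropilins and plexins, fell by 0.91 ± 0.13 on the log2 scale in the combined knockdown (adjusted p = 0.032), the 1 gene called of 12 in its list. The Notch ligand JAG1 rose there by 0.97 ± 0.16 (limma adjusted p = 0.046), the 1 gene called of 18. These single calls are 8.33% and 5.56% of their lists, against 1.84% of all probe sets and 2.67% of those with 1 symbol. Nothing is read from 1 call in a list of this size. Against H3.Y siRNA, 22.2% of the 18 Notch genes were called in the combined knockdown, against 4.67% of all probe sets and 6.66% of those with 1 symbol. JAG1 (1.01 ± 0.16), HES1 (1.06 ± 0.18) and LFNG (1.18 ± 0.19) were higher there and HEY1 (-1.60 ± 0.21) lower, with adjusted p in limma between 0.016 and 0.032. HES1 and HEY1 are transcriptional targets of Notch, and they differed in opposite directions.

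The angiogenesis inhibitors held 4 genes that rose and 1 that fell among 26 in the combined knockdown. That is 19.2% of the list, against 1.84% of all probe sets and 2.67% of those with 1 symbol. The matrix protein thrombospondin 1 (THBS1) stood at 12.02 and 11.87 log2 units in the combined knockdown, 9.18 and 9.19 after H3.Y siRNA, and 9.80 and 8.95 in luciferase cells, a rise over luciferase of log2 2.57 ± 0.27 (adjusted p = 0.018). TIMP3, a metalloproteinase inhibitor that can block VEGFA at KDR, rose by 2.19 ± 0.32 (adjusted p = 0.032), with 1.87 ± 0.20 on its second probe set. SPRY2, a feedback inhibitor of receptor tyrosine kinases, rose by 1.44 ± 0.13 (adjusted p = 0.015), while SPRED1, an inhibitor of the same Ras pathway, fell by 0.99 ± 0.13. CXCL10, a chemokine named here after its values were seen, rose by 0.90 ± 0.15 (adjusted p = 0.049) and lay below the lower quartile in luciferase cells. After H3.Y siRNA, SPRY2 gave 0.92 ± 0.13 (adjusted p = 0.067) and the cytokine TNFSF15 1.27 ± 0.21 (adjusted p = 0.086), and 0 of the 26 passed (4 at an unadjusted p under 0.05).

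Of 32 other angiogenic growth factors and receptors, PDGFC rose (1.32 ± 0.19, limma adjusted p = 0.033) and FGF1 fell (-1.40 ± 0.18, adjusted p = 0.026) in the combined knockdown. That is 6.25% of the list, against 1.84% of all probe sets and 2.67% of those with 1 symbol. Of 16 proteases that process or shed such factors, 12.5% were called there. The membrane metalloproteinase MMP14 (1.47 ± 0.21, limma adjusted p = 0.032) and the tissue plasminogen activator PLAT (0.91 ± 0.14, adjusted p = 0.034) rose. The gelatinase MMP9, named after its values were seen, had a larger but uncalled difference, with 7.98 and 8.64 log2 units in the combined knockdown, 10.23 and 8.51 after H3.Y siRNA, and 6.81 and 6.81 in luciferase cells. Its ratio to luciferase was 2.83 in the combined knockdown (adjusted p = 0.25) and 5.90 after H3.Y siRNA (log2 2.56 ± 0.53, adjusted p = 0.12), and its H3.Y arrays lay far apart. Urokinase (PLAU) was the 1 pathway gene called after H3.Y siRNA. It stood at 8.48 and 8.75 log2 units in the combined knockdown, 6.75 and 6.59 after H3.Y siRNA, and 8.34 and 8.05 in luciferase cells, and it fell by 1.53 ± 0.17 on the log2 scale after H3.Y siRNA (adjusted p = 0.038). That call was lost when any array except H3.Y replicate 2 was left out, with a replicate block, and when only the 4 arrays of that comparison were fitted.

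Relatives of ADGRL4 and CDH5 were set beside them. Of 15 other adhesion receptors, ADGRG1 (1.53 ± 0.15, limma adjusted p = 0.016) and the latrophilin ADGRL3 (1.38 ± 0.17, adjusted p = 0.023) rose in the combined knockdown, where ADGRL4 was lower. That is 13.3% of the list, against 1.84% of all probe sets and 2.67% of those with 1 symbol. Of 17 cadherins and catenins, 0 passed against luciferase. N-cadherin (CDH2) gave 0.91 ± 0.18 in the combined knockdown (adjusted p = 0.067) and CDH12 0.89 ± 0.20 (adjusted p = 0.090).

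Markers of other cell types were read in the same way. By level, of a panel of 5 measured blood markers, 2 lay above the array median on all 6 arrays and 3 were dim on all 6. Of 5 mural markers, 3 lay above it on all 6 arrays and 2 were dim on all 6. Lying above the median was therefore not confined to the classes nearest to the labelled line. Of 12 blood cell markers 0 passed against luciferase. Among them CSF1R gave 0.68 ± 0.20 in the combined knockdown (adjusted p = 0.18), and CD68 gave -0.53 ± 0.25 there and 0.95 ± 0.25 after H3.Y siRNA (adjusted p = 0.40 and 0.18). Of 11 mural cell markers CNN1 rose in the combined knockdown (1.03 ± 0.14, adjusted p = 0.028), which is 9.09% of the list, against 1.84% of all probe sets and 2.67% of those with 1 symbol. After H3.Y siRNA 0 of the 11 passed (4 at an unadjusted p under 0.05), with MCAM at -1.41 ± 0.22 and ACTA2 at 1.15 ± 0.19 (limma, adjusted p = 0.072 and 0.079). The H3.Y arrays lay below the luciferase arrays for 5 of the 11 markers and above them for 2. Arrays of these groups did not overlap for 41.7% of all probe sets either, so nothing is read from that count. Of 12 mesenchymal and osteoblast markers COL1A1 rose in the combined knockdown (1.58 ± 0.17, adjusted p = 0.019), or 8.33% of the list. The median difference over these 12 was log2 0.10 there, with SPARC at 1.02 ± 0.18 (adjusted p = 0.054), CDH11 at 0.05 ± 0.21 and VIM at -0.02 ± 0.14. Averaged over the 6 markers of the plot, which include COL1A1 and SPARC, the arrays lay between 8.23 and 8.39 log2 units in the combined knockdown, between 7.60 and 7.62 after H3.Y siRNA and between 7.70 and 7.75 in luciferase cells. The part of these markers in the differences of RHOJ, ADGRL4 and ESM1 was not tested. Leaving out any single array of the luciferase or combined knockdown groups brought the 16 calls between the combined knockdown and luciferase to 0 (46 to 50 of 277 at an unadjusted p under 0.05), while leaving out either H3.Y array gave 18.

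Between the knockdowns, 914 of all called probe sets were higher in the combined one and 640 lower. Most of the called pathway genes were higher in it as well. Among growth factors these were PDGFC (log2 2.08 ± 0.19), PDGFD (1.40 ± 0.21) and TGFA (1.61 ± 0.26), while the sphingosine kinase SPHK1 was lower (-1.22 ± 0.22). In the inhibitor list, THBS1 was higher by 2.76 ± 0.27, TIMP3 by 1.95 ± 0.32 and TIMP2 by 1.08 ± 0.13. The same list held COL4A1, a basement membrane collagen, which was higher by 1.64 ± 0.23. Of the 26 genes in that list, 4 were called higher and 1, not named here, lower, or 19.2%. PLAU (1.94 ± 0.17) and PLAT (1.64 ± 0.14) were higher in the protease list, and PLAU arrays of the combined knockdown lay above the luciferase arrays as well. The adhesion receptors ADGRG1 (2.02 ± 0.15) and ADGRL3 (1.13 ± 0.17), and the cadherins CDH12 (1.64 ± 0.20) and CDH2 (1.08 ± 0.18) were higher, while SEMA3C (-1.25 ± 0.13) was lower. Of the markers, COL1A1 (2.10 ± 0.17), SPARC (1.31 ± 0.18), CNN1 (1.51 ± 0.14) and MCAM (1.53 ± 0.22) were higher and CD68 (-1.48 ± 0.25) and ACTA2 (-1.07 ± 0.19) lower, or 16.7% of the mesenchymal, 27.3% of the mural and 8.33% of the blood markers, against 4.67% of all probe sets. The adjusted p of the genes named in this paragraph lay between 0.0051 and 0.033 in limma. Without replicate 1 of the combined knockdown 0 of the 32 calls were left (55 of 277 at an unadjusted p under 0.05), without its replicate 2 there was 1 call, and without H3.Y replicate 1 or either luciferase array there were 13.

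**Figure D4:**
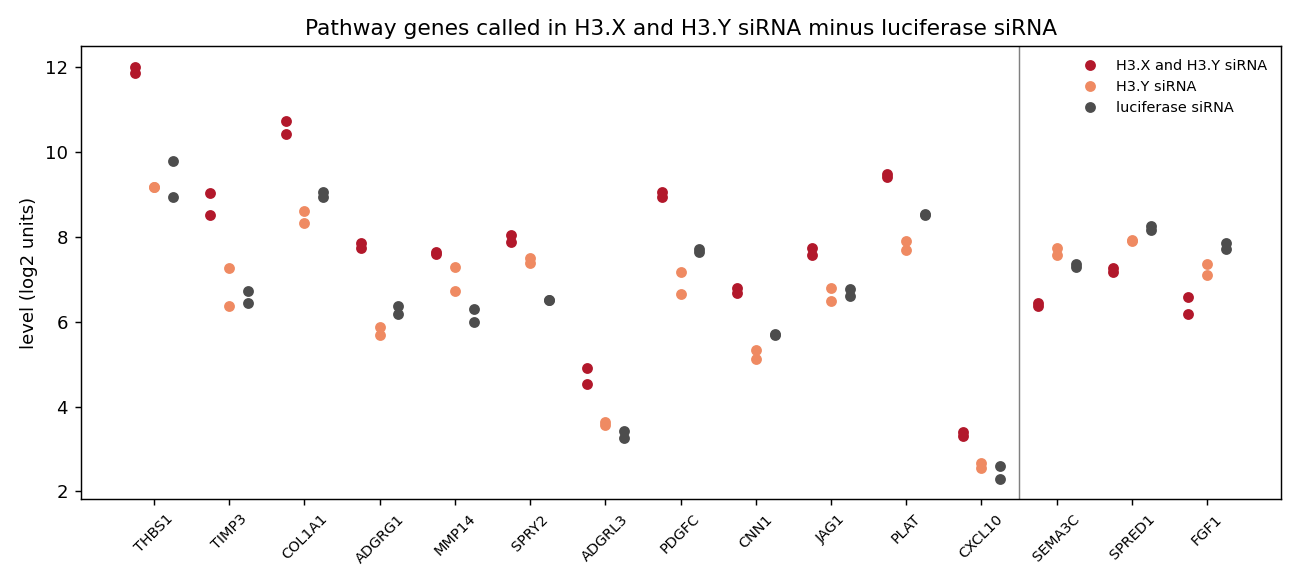
Levels (log2 units, vertical axis) on each array of 15 of the 16 pathway genes called between the combined knockdown and luciferase, ordered by difference, with 1 point per array. The 12 genes left of the vertical line are higher in the combined knockdown and the 3 on its right, SEMA3C, SPRED1 and FGF1, are lower.

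The genes whose pattern over the 6 arrays was most like that of ESM1, ADGRL4 and RHOJ were found among 2689 probe sets with 1 symbol and a range of at least 1 log2 unit. For ESM1 they were the lysine methyltransferase SMYD2 (Pearson r = 0.996), the growth factor FGF5 (0.994) and METTL2B (0.992). For ADGRL4 they were STT3B, a catalytic subunit of the oligosaccharyltransferase (0.999), COA6 (0.998) and MINPP1 (0.998). For RHOJ they were the collagen receptor DDR1 (0.996), PFKFB2 (0.994) and the epithelial adhesion molecule EPCAM (0.994). These r values are a description over 6 arrays in which the 2 combined knockdown arrays lie apart from the other 4, and any gene with that split has a high r. FGF5 stood at 5.75 and 6.31 log2 units in the combined knockdown, 7.26 and 7.16 after H3.Y siRNA, and 7.33 and 7.52 in luciferase cells. Like ESM1 it was lowest in replicate 1 of the combined knockdown, as were SMYD2 and METTL2B. Nothing is read from that order, because these genes were picked for their likeness to ESM1 on the same arrays.

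**Figure D5:**
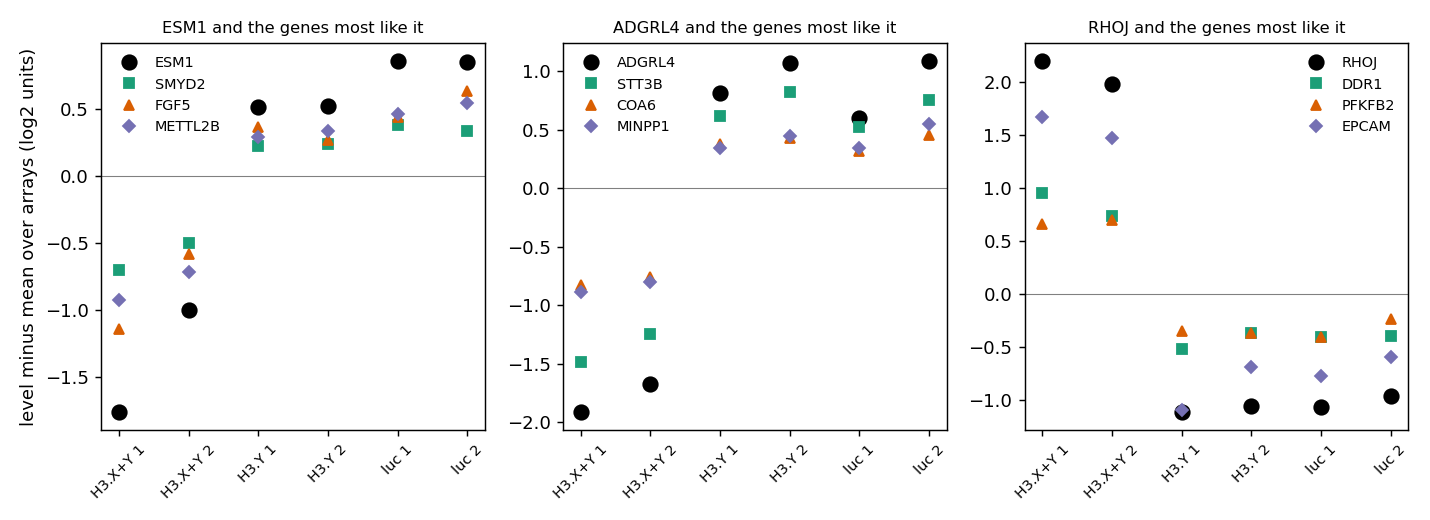
Level minus the mean over the 6 arrays (log2 units, vertical axis) for ESM1, ADGRL4 and RHOJ and for the 3 genes most like each, with 1 point per array along the horizontal axis. In each panel the 2 combined knockdown arrays lie on the other side of 0 from the 4 remaining arrays.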

How the data were processed

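Biotin-labelled total RNA was hybridised by the standard Affymetrix protocol, per the labels' protocols. The authors deposited 1 log2 expression value per probe set and array, and the submitters' processing notes name the Bioconductor package oligo. Its version, background correction and summarisation, like the genome build, are not stated. Values between 0.687 and 14.0 were taken to be on a base of 2, which no source states. They were used as deposited, with 0 value columns unused. If the values were scaled between arrays, which is not stated, a change shared by all transcripts would be hidden. No scan date or batch was given.

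Names came from the platform annotation, updated by Entrez ID through RefSeq (GRCh38.p14) for 19429 of 19460 probe sets with 1 symbol. Those with several symbols (1754) or unnamed here (12083) stayed in the fit. Limma 3.58.1 in R 4.3.3 (lmFit, eBayes) took all 6 arrays with 1 mean per group, giving 3 residual and 3.43 prior degrees of freedom. Two-sided p-values were adjusted over the 33297 probe sets by Benjamini-Hochberg. The procedure was run on simulated data with independent noise for each probe set and few changed probe sets. These arrays need not share that setting, so the run does not vouch for the calls. Each pathway gene was read from its probe set of highest mean. In each list and comparison, up to 4 called genes with the smallest p were to be named, or up to 2 uncalled ones, some of which are left out for room, and the genes of 1 list are not reported here. The genes and lists were chosen with earlier results of these data known. The number of arrays, 2 per group, limits the precision, and p-values measure only the spread between these arrays.

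Other settings tried were the replicate number as a block, a fit of the 4 arrays compared alone, repeated quantile normalization, centring on medians, a filter on the dimmest 25% of probe sets, an intensity trend in eBayes, probe sets with 1 symbol alone, and each array left out in turn.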

Additional observations from a re-analysis of the deposited data

How the results depend on the processing

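In limma, probe sets called after H3.Y siRNA numbered 93, against 0 with only the 4 arrays compared (3709 at an unadjusted p under 0.05), 192 without the dimmest 25%, 205 with an intensity trend and 829 over probe sets with 1 symbol. For pathway genes in that comparison the count of 1 became 0 with only the 4 arrays (36 at an unadjusted p under 0.05), 2 without the dimmest 25%, 2 with a trend and 15 over probe sets with 1 symbol. In the combined knockdown, 614 became 927, 960 and 1549 in these last 3 settings, and the 16 pathway genes became 37 over probe sets with 1 symbol, all 16 among them. Between the combined knockdown and H3.Y siRNA, 1554 became 448 with only the 4 arrays and 2715 over probe sets with 1 symbol, and the 32 pathway genes became 13 with only the 4 arrays. Leaving out 1 array gave 0 to 629 probe sets after H3.Y siRNA, 0 to 644 in the combined knockdown (2852 to 3897 at an unadjusted p under 0.05 where it was 0) and 12 to 1641 between them, and 0 to 7, 0 to 18 and 0 to 30 pathway genes. With 1 array left out, the lone array of a group is assumed to vary like the others. Quantile normalization and median centring kept all of these counts within 1.5 times.

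With the replicate number as a block, 68, 750 and 1778 probe sets and 0, 16 and 37 pathway genes were called after H3.Y siRNA, in the combined knockdown and between them (53 pathway genes at an unadjusted p under 0.05 for the 0). The deviations of same-numbered arrays correlated with r of 0.22, 0.28 and 0.12 between groups, and with 2 numbers and no label of a shared batch this does not show pairing.

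A block, the 4-array fit, the filters and the trend cannot move a difference of group means. Under quantile normalization, median centring and each array left out, the differences of RHOJ, ADGRL4, ESM1, NRP1 and VEGFC in the combined knockdown kept their sign, at log2 2.99 to 3.21, -2.88 to -2.39, -2.61 to -1.86, 1.27 to 1.52 and 0.81 to 0.92. Signs changed when an array was left out for KDR, FLT1 and NRP2, and for ADGRL4 after H3.Y siRNA (-0.14 to 0.35). For NRP2 probe set 8047763 the sign between the knockdowns also changed under quantile normalization, from log2 -0.02 to 0.001. How far dim signals can fall may limit the folds of ADGRL4 and the dim receptors, which was not tested.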
